A study of Mus musculus with 4 samples.

Results

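Alpha-defensins are small antimicrobial peptides that Paneth cells, at the base of the crypts of the small intestine, store in granules and release into the crypt lumen. They are made as precursors that pass through the endoplasmic reticulum (ER) and Golgi, where disulfide bonds form, and in mice the protease matrilysin (Mmp7) cuts them to the active form. In mice they are also called cryptdins, and their genes form a cluster of near-identical copies, so that an array probe can often detect several of them.

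The members described here were the probe sets of the array whose platform annotation names at least 1 gene with a symbol that starts with Defa. There were 8 of them among 35557 probe sets, 23410 of which have an annotated symbol. Of these 8, 2 name 1 gene each, which are Defa24 (probe set 10570735) and Defa39 (10577437), and 6 name several. Probe set 10570651 names Defa21, Defa22, Defa23 and Defa31, and probe set 10570671 names these and Defa2, Defa20, Defa26, Defa32 and Defa33. Probe set 10570703 names Defa25, Defa27, Defa28 and the pseudogene Defa-ps1. Probe sets 10570663, 10570700 and 10570723 all name these 4 and also Defa3, Defa17, Defa23 and Defa31. No member names a gene outside the family. Probe sequences were not used, so a single named gene does not show that the probes detect that gene alone. All 17 symbols were found on chromosome 8 in the RefSeq genes of GRCm38.p6, a mouse assembly, 16 of them as protein coding, and 13 of the 29 protein coding Defa genes of that assembly are named by no member. A probe set that names several genes gives 1 value for all of them, and Defa23 and Defa31 are named by 5 of the 8 members, so the members share targets and are not independent measurements.

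The study compared sorted crypt cells of the small intestine of adult mice with and without the zinc transporter ZIP7 (gene Slc39a7), which releases zinc from the ER and Golgi, and its title concerns epithelial proliferation and stem cells. There were 4 Affymetrix arrays, 1 for each group. The groups were cells labelled Lgr5-Hi from Zip7 KO mice, cells with this label from control mice, cells labelled Lgr5-Med from Zip7 KO mice, and cells with that label from control mice. Zip7 KO mice were Zip7flox/flox and control mice Zip7flox/+. Mice of both genotypes carried villin-CreERT2, a tamoxifen-inducible recombinase active in the intestinal epithelium, and a Lgr5-EGFP-ires-CreERT2 allele whose fluorescence was used for sorting, and all received tamoxifen for 2 days. The controls thus were expected to have 1 Zip7 copy deleted. The titles write Lgr5-Mid where the source names write Lgr5-Med. How many animals gave an array, and whether both fractions of a genotype came from the same mice, is not in the labels. With 1 array per group there was no replicate spread, no difference was tested, and no p-value was computed. The small number of arrays limits how precise any value is.

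The following facts of the whole series bear on each value below. Lgr5 itself was at 7.93 and 7.79 (log2) in the Zip7 KO and control arrays labelled Lgr5-Hi, and at 11.24 and 10.97 in the Zip7 KO and control arrays labelled Lgr5-Med, so its level ran against the fraction labels. The labels are kept as given. Slc39a7 was at 9.02 and 8.92 in the Zip7 KO and control arrays labelled Lgr5-Hi and at 8.22 and 8.61 in those labelled Lgr5-Med. Its probes were not placed relative to the deleted exons, so these values do not check the deletion. Xist, expressed from the inactive X chromosome, was below background in both Zip7 KO arrays (5.59 and 5.43) and at 11.64 and 11.84 in the control arrays, and 3 Y-linked genes (Eif2s3y, Uty and Kdm5d) ran the other way, so that sex and genotype cannot be told apart. The lymphocyte and myeloid markers differed with genotype as well. In the arrays labelled Lgr5-Hi all 9 that were above background on at least 1 array were lower in Zip7 KO, with a median difference of -1.07, and in those labelled Lgr5-Med all 12 were, with a median of -0.99. The summed linear level of the 12 markers was 2540.9 and 2150.6 in the Zip7 KO arrays, against 4115.1 and 4931.6 in the control arrays of the same labels. One of them, the lysozyme gene Lyz2, is also in the list of Paneth cell granule genes used below. Without it, left out after its values were seen, the sums were 1399.0 and 1549.6 in the Zip7 KO arrays, against 2840.6 and 4010.5 in the control arrays. Past 2-fold under both labels were Gzma, Gzmb, Nkg7, Cd7 and Ccl5, genes of cytotoxic lymphocytes. They differed by -1.47 to -1.07 under Lgr5-Hi and by -2.55 to -1.33 under Lgr5-Med. By deposited values Fcer1g was past 2-fold as well under Lgr5-Med (-1.03). Nkg7 was below background in the Zip7 KO array labelled Lgr5-Hi, which gives a difference of at least -1.04 there. So were Cd3g and Cd8a, which gives at least -0.20 and -0.47. In the Zip7 KO array labelled Lgr5-Med, Fcer1g, Cd3g, Ptprc and Tyrobp were below background. This gives at least -0.25, -0.52, -0.04 and -0.15 in that order. The medians of these markers use the deposited values, also where an array was below background. The part of sex and of these cells in the differences below was not tested.

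Promoter sequence was read from a RefSeq table for the 8 of the 17 named genes that were matched there, to show how alike these promoters are. Array probes detect transcripts, so promoter sequence does not show why a probe set names several genes. Each sequence runs from 250 bases before to 50 bases after the start of transcription given there, 5′ to 3′ on the plus strand of GRCm38.p6. Capitals mark the TATA box motif TATAAA and the motif of T cell factors, the DNA-binding partners of beta-catenin in Wnt signalling, which was searched on both strands as the words CTTTGAA and also CTTTGAT and also CTTTGTA and also CTTTGTT, and which reads ATCAAAG where CTTTGAT lies on the minus strand. The 4 sequences shown differ from each other, and 3 of the other 4 genes repeat one of them. Those of Defa22 and Defa31 are identical to those of Defa21 and Defa23, that of Defa20 is identical to that of Defa2, and that of Defa32 is the sequence of Defa2 shifted by 2 bases.
Defa21, chr8:21025295-21025594: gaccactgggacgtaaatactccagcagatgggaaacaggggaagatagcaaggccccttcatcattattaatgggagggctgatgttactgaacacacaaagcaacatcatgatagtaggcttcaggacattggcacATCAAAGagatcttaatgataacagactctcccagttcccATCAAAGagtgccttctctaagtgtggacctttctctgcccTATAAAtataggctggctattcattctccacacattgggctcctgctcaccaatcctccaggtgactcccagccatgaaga
Defa23, chr8:21054790-21055089: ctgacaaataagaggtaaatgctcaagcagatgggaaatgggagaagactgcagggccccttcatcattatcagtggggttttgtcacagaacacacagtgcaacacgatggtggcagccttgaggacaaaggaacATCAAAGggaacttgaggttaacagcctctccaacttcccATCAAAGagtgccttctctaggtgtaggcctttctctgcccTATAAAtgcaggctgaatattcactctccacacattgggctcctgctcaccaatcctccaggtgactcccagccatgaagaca
Defa2, chr8:21378267-21378566: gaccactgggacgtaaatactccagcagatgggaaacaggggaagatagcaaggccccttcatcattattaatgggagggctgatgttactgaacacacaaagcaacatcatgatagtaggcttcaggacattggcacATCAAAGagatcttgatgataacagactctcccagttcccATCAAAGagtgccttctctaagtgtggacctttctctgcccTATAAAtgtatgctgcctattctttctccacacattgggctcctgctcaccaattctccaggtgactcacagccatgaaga
Defa28, chr8:21582777-21583076: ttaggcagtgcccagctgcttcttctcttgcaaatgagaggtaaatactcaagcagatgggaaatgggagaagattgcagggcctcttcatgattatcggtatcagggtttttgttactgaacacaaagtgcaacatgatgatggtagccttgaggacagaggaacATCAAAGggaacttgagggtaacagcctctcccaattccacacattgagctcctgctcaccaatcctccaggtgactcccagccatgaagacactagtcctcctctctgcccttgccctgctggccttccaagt

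All 8 of these promoters held the T cell factor motif in at least 1 place, always as CTTTGAT on the minus strand, and 7 of the 8 held it in 2 places. In Defa21 the matches lay at -112 to -106 and at -72 to -66 from the start, and in Defa23 at -114 to -108 and at -74 to -68. Defa28 held 1 match, at -84 to -78, and no TATAAA, and its window is placed around a start that lies 67 bases inside the gene as the gene table gives it. The other 7 held TATAAA once, in Defa21 at -31 to -26. Of all 32851 RefSeq promoters of this length, 16.9% held the T cell factor motif at least once, 1.94% held it 2 or more times and 13.6% held TATAAA. Aligned without gaps, the sequence of Defa21 was identical to that of Defa2 at 97.7% of positions, to that of Defa23 at 70.1% and to that of Defa28 at 63.2%. The 8 promoters are therefore not independent examples of the motif, and a match is a run of letters, not a site shown to be bound.

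All 8 alpha-defensin probe sets were far above background on all 4 arrays. The background level of an array was percentile 95 of its 1374 probe sets for olfactory, vomeronasal and trace amine receptors, which the intestine should not express, and lay between 6.23 and 6.49. The members lay between 11.46 and 13.36 in the Zip7 KO array labelled Lgr5-Hi and between 11.93 and 13.50 in the control array with that label. In the arrays labelled Lgr5-Med they lay between 10.59 and 12.43 in Zip7 KO and between 11.16 and 13.04 in the control. By signal the lowest member was still within the top 2.99%, 2.01%, 5.31% and 3.64% of all probe sets in this order of arrays. The signal of one probe set is not compared with that of another as an amount of RNA. The beta-defensin genes, relatives of the alpha-defensins that are expressed in other epithelia, and Camp, the gene of the antimicrobial peptide cathelicidin, were mostly at background. Of these 41 genes with a probe set of their own, 2 (Defb25 and Defb46) were above it on any array, at 7.16 at most. All 7 neutrophil markers were below background on all arrays.

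**Figure D1:**
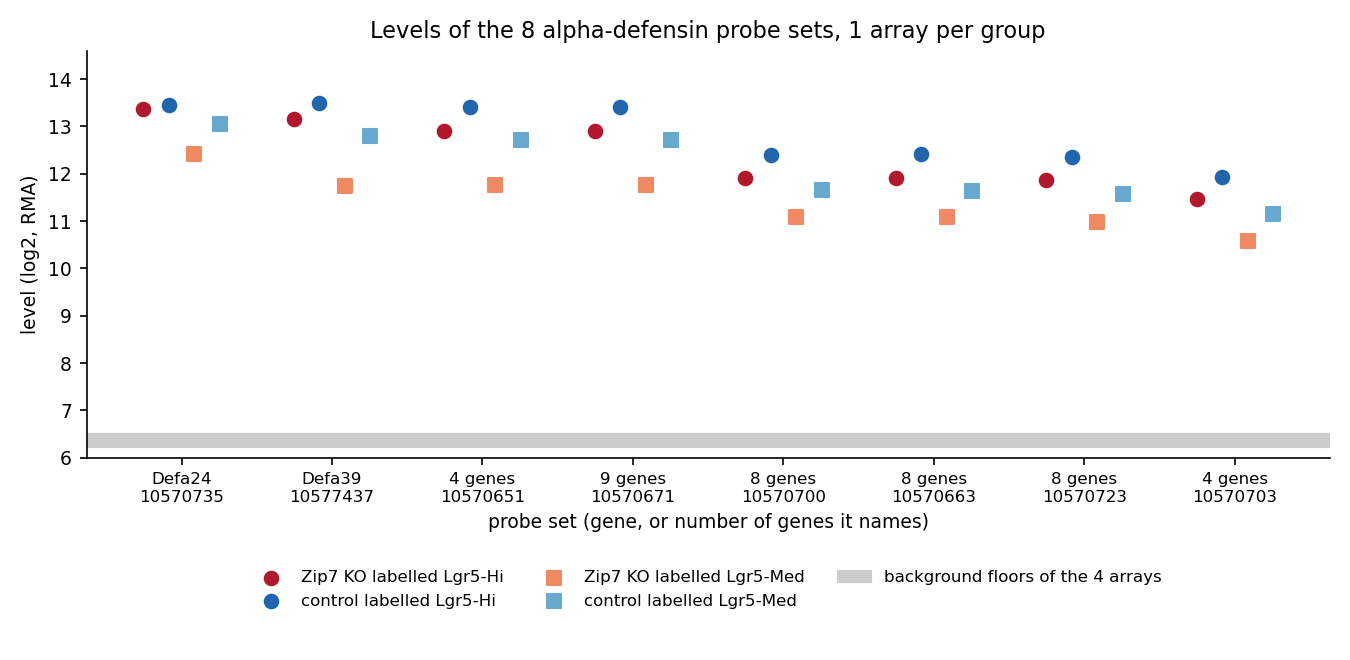
Level (log2, RMA) of each alpha-defensin probe set on each of the 4 arrays, with 1 point per array and no error bars because each group had 1 array. In every probe set the control array labelled Lgr5-Hi is highest and the Zip7 KO array labelled Lgr5-Med is lowest, and all points lie far above the grey band of background floors at 6.23 to 6.49.

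The order of the 4 arrays was the same in all 8 probe sets. The control array labelled Lgr5-Hi was highest and the Zip7 KO array labelled Lgr5-Med was lowest. The Zip7 KO array labelled Lgr5-Hi and the control array labelled Lgr5-Med lay between them, the first being the higher one of the pair in all 8. Each array enters several of the comparisons below, so these comparisons share their arrays and are not independent of each other.

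In cells labelled Lgr5-Hi, all 8 alpha-defensin probe sets were lower in Zip7 KO than in the control, by modest amounts. The median difference was -0.48 on the log2 scale, and the range was -0.51 to -0.09. Over all 13354 annotated probe sets above background on at least 1 of these 2 arrays, the median difference was 0.03, the central 95% lay between -0.44 and 0.49, and 42.1% were lower. No member was at least 2-fold lower, where 0.337% of all probe sets were. Defa24 was at 13.36 in Zip7 KO, against 13.45 in the control, a difference of -0.09 that leaves 93.9% of the control level. Defa39 was at 13.15 in Zip7 KO, against 13.50 in the control, a difference of -0.35 that leaves 78.7%. The probe sets that name 1 gene thus had the smallest differences, and their median was -0.22. They were also the 2 highest members by mean level (13.07 and 12.80). Whether a high signal narrowed their differences was not tested.

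The other 6 members lay close together in this comparison. Probe set 10570651, which names Defa21, Defa22, Defa23 and Defa31, was at 12.91 in Zip7 KO, against 13.42 in the control (-0.51). Probe set 10570671, which shares these symbols, was at 12.91 in Zip7 KO, against 13.41 in the control (-0.50). Probe set 10570703, the lowest of the members by mean level, was at 11.46 in Zip7 KO, against 11.93 in the control (-0.47). The remaining 3 probe sets differed by -0.49 to -0.48, or 71.1% to 71.9% of the control level. All 6 were below the central 95% of all probe sets.

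In cells labelled Lgr5-Med, all 8 probe sets were again lower in Zip7 KO, with a median difference of -0.61 and a range of -1.06 to -0.56. Over all 13825 probe sets above background the median difference was -0.02, the central 95% lay between -0.55 and 0.42, and 53.5% were lower. Defa39 was the 1 member at least 2-fold lower, where 0.680% of all probe sets were. It was at 11.74 in Zip7 KO, against 12.81 in the control, a 2.09-fold lower level. With every array set to a common median, 3 members were at least 2-fold lower, where 0.926% of all probe sets were, and the median was -0.72. That scaling shifted the median of all probe sets by -0.11. Bulk arrays of sorted cells cannot tell fewer Paneth cells from less defensin RNA in each Paneth cell.

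The members differed more among themselves under this label. Defa24 was at 12.43 in Zip7 KO, against 13.04 in the control (-0.62, or 65.2% of the control level). Probe set 10570651 was at 11.76 in Zip7 KO, against 12.71 in the control (-0.95), and probe set 10570671 at 11.77 in Zip7 KO, against 12.71 in the control (-0.94). Both therefore kept 51.6% to 52.0% of the control level. Probe set 10570703 was at 10.59 in Zip7 KO, against 11.16 in the control (-0.57). The 3 probe sets that name the same 8 symbols differed by -0.59 to -0.56, at 66.2% to 68.0% of the control level.

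**Figure D2:**
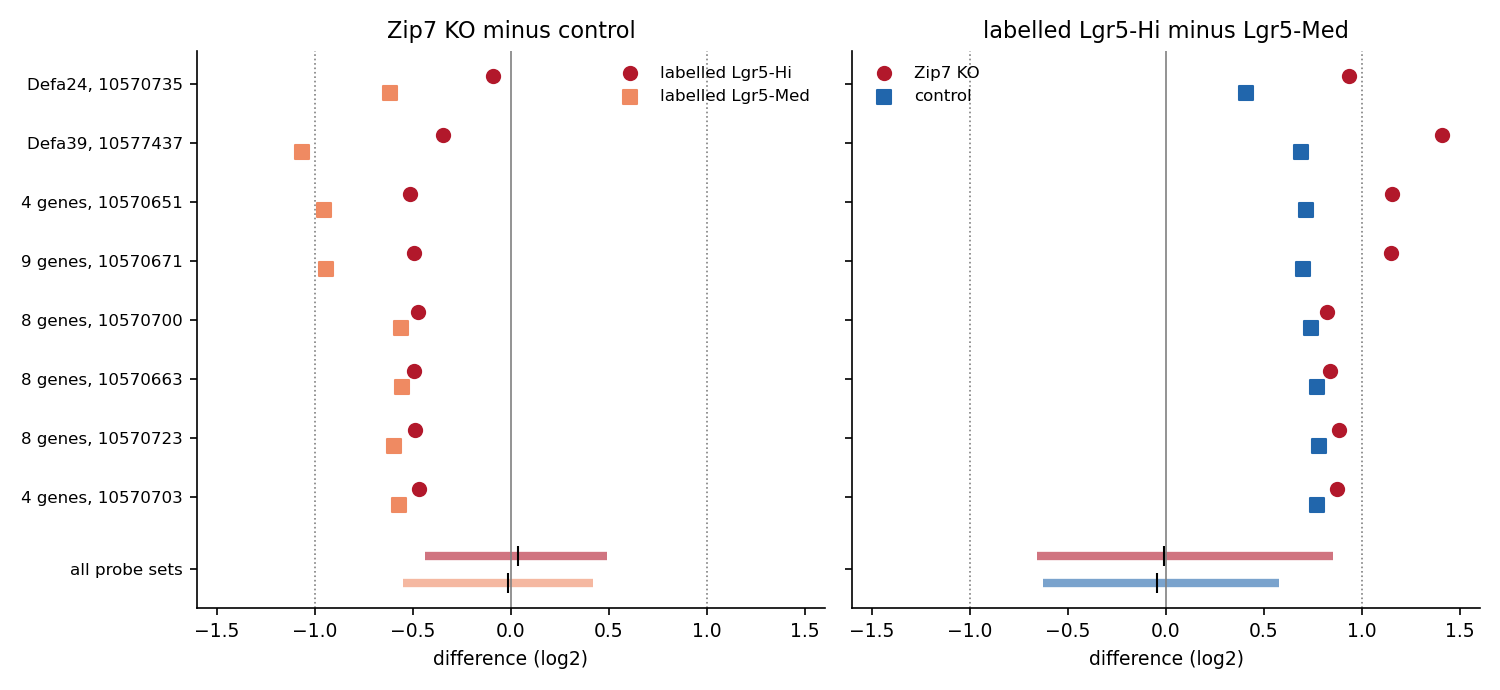
Difference (log2) of each alpha-defensin probe set in the 2 genotype comparisons and in the 2 fraction comparisons, 1 point per probe set and comparison, with no error bars because each group had 1 array. Bars at the bottom span the central 95% of all probe sets with a tick at their median, and dotted lines mark 2-fold. All genotype differences lie below 0 and all fraction differences above 0, and Defa39 in cells labelled Lgr5-Med is the genotype difference past 2-fold.

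The probe sets for the same symbols show how alike related probe sets were within an array, which is not repeatability between animals. The 3 that name the same 8 symbols spread by 0.05 to 0.11 in level on an array and by 0.02 and 0.04 in the genotype differences under the Lgr5-Hi and Lgr5-Med labels. The pair that names Defa21 and Defa22 averaged -0.50 under Lgr5-Hi and -0.95 under Lgr5-Med. The 4 that name Defa25, Defa27 and Defa28 averaged -0.48 and -0.57 under these labels. Under Lgr5-Med the gap between these blocks was wider than the spread within either of them, and under Lgr5-Hi it was about as small as that spread. The probes of each probe set were not used here, so probes shared within or between blocks were not counted. Members of both blocks name Defa23 and Defa31. The spread within a block therefore cannot show whether the gap between the blocks is repeatable.

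**Figure D3:**
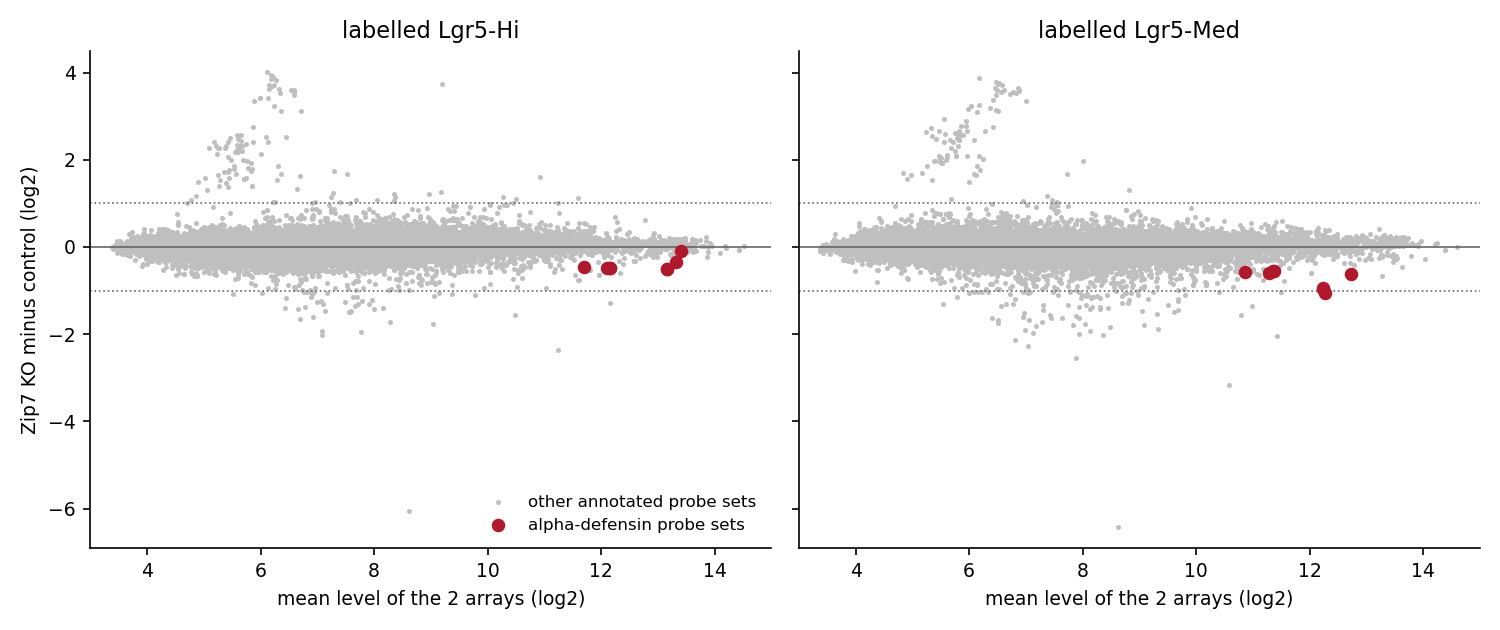
Zip7 KO minus control (log2) against the mean level of the 2 arrays (log2), in cells labelled Lgr5-Hi (left) and Lgr5-Med (right), 1 point per annotated probe set with the 8 alpha-defensin probe sets in red and dotted lines at 2-fold. The members lie at the high end of the level axis and below 0, with medians of -0.48 and -0.61.

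Between the fractions, all 8 probe sets were higher in cells labelled Lgr5-Hi than in cells labelled Lgr5-Med, in both genotypes. In Zip7 KO the median difference was 0.91 with a range of 0.82 to 1.41. There all 13319 probe sets had a median of -0.01 and a central 95% of -0.66 to 0.85, and 48.1% were higher. Defa39, 10570651 and 10570671 were at least 2-fold higher, 3 of 8 where 1.80% of all probe sets were, and Defa39 was 2.66-fold higher. In the control the median was 0.73 with a range of 0.41 for Defa24 to 0.78. There all 13805 probe sets had a median of -0.05 and a central 95% of -0.63 to 0.58, and 41.8% were higher. No member was at least 2-fold higher in the control, where 0.630% of all probe sets were.

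Of the other genes listed as Paneth cell granule genes, 16 of 17 were higher under the Lgr5-Hi label in each genotype. The exception was Fgfrl1, which, like Nupr1 in this list, does not code for a granule protein. The medians of the 17 were 1.15 in Zip7 KO and 0.62 in the control. In Zip7 KO 11 and in the control 7 were at least 2-fold higher. Reg4, a secreted lectin, was 2.70 higher in Zip7 KO and 1.83 higher in the control.

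Markers of other cell types also differed between the fractions. All 7 goblet cell markers were higher under the Lgr5-Hi label, with medians of 1.33 in Zip7 KO and 1.02 in the control. All 7 enteroendocrine markers were higher too, with medians of 2.58 in Zip7 KO and 2.40 in the control. Tuft cell markers were higher in 4 of 5 in Zip7 KO (median 0.39) and in 5 of 5 in the control (0.68). Enterocyte markers were higher in 7 of 8 in Zip7 KO (median 0.36) and in 5 of 8 in the control (0.04). The 8 stem cell genes were lower under the Lgr5-Hi label, with medians of -1.52 in Zip7 KO and -1.19 in the control. The part of the cell makeup in the defensin differences was not tested.

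Subtracting the genotype difference under the Lgr5-Med label from that under the Lgr5-Hi label gave a value above 0 in all 8 probe sets, with a median of 0.27 and a range of 0.06 to 0.72. Over all 14005 probe sets its median was 0.05, its central 95% lay between -0.43 and 0.57, and 58.9% were above 0. Defa39 had the largest value at 0.72, followed by Defa24 at 0.53. The pair that names Defa21 and Defa22 averaged 0.44. The 4 probe sets that name Defa25, Defa27 and Defa28 averaged 0.09, so their genotype differences under both labels were nearly alike. With 1 array per group this difference between the labels was not tested.

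Most other genes listed as Paneth cell granule genes were lower in Zip7 KO as well. Not all of them code for granule proteins, Nupr1 and Fgfrl1 being examples, and Lyz2 is also among the lymphocyte and myeloid markers. How specific the others are to Paneth cells was not tested. Of 21 listed genes 17 were above background on a probe set of their own. Under Lgr5-Hi 14 of the 17 were lower and 3 higher, with a median of -0.57, and 3 were at least 2-fold lower (Reg3b, Mmp7 and Reg3g). The 3 higher genes were Nupr1 by 0.68, Reg3a by 0.17 and Ang6 by 0.10. Under Lgr5-Med 17 of 17 were lower, with a median of -1.20, and 9 were at least 2-fold lower. Without Lyz2, 13 of 16 were lower under Lgr5-Hi (median -0.58) and 16 of 16 under Lgr5-Med (median -1.24). Reg3b, a secreted antibacterial lectin, was at 10.06 in Zip7 KO and 12.42 in the control under Lgr5-Hi (-2.36). Under Lgr5-Med it differed by -3.16. Its relative Reg3g differed by -1.29 and -2.03 under these labels. Under Lgr5-Med, Clps (pancreatic colipase) differed by -1.55, Itln1 (intelectin) by -1.54, Pla2g2a (a secreted phospholipase) by -1.47, Habp2 by -1.33, Ang4 (an antimicrobial ribonuclease) by -1.28 and Reg4 by -1.20. Under Lgr5-Hi these 6 differed by -0.94 to -0.33.

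Lysozyme, the classical Paneth cell granule enzyme, differed less than the genes of this list past 2-fold. It was not alone in this. Under Lgr5-Med, Guca2b, Ang6 and Reg3a, among others of the list, differed by -0.22, -0.01 and -0.42. Lyz1 was at 13.84 in Zip7 KO, against 13.94 in the control, under Lgr5-Hi (-0.10), and at 12.94 in Zip7 KO, against 13.61 in the control, under Lgr5-Med (-0.67). These differences were near those of Defa24. Goblet markers were lower in 4 of 7 under Lgr5-Hi (median -0.05) and in 6 of 7 under Lgr5-Med (-0.36), where Spink4 differed by -1.34 and the mucin gene Muc2 by -1.03. Enterocyte markers were lower in 3 of 8 under Lgr5-Hi (median 0.02) and in 8 of 8 under Lgr5-Med (-0.34). Enteroendocrine markers were lower in 5 of 7 under Lgr5-Hi (-0.38) and in 5 of 7 under Lgr5-Med (-0.26), where the hormone gene Gcg differed by -1.43. Tuft cell markers were lower in 4 of 5 under Lgr5-Hi (-0.05) and in 0 of 5 under Lgr5-Med (0.17). The part of these cells in the defensin differences was not tested.

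**Figure D4:**
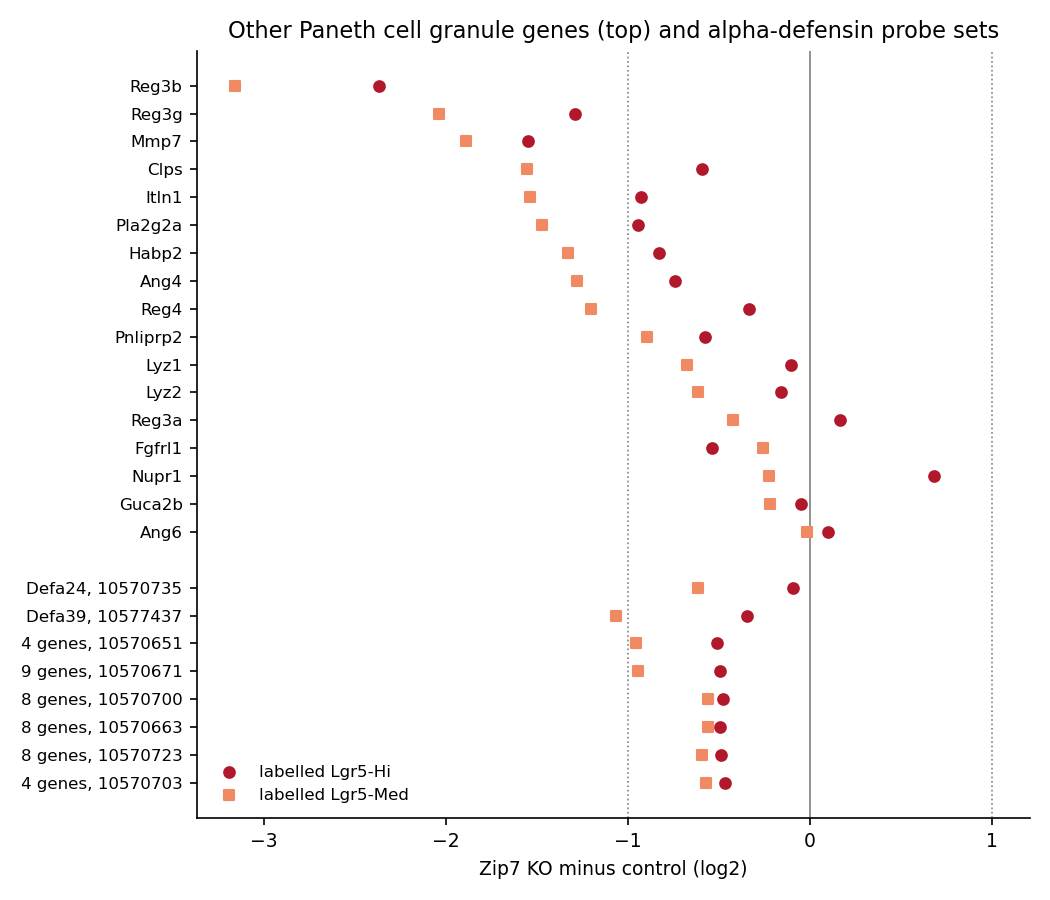
Zip7 KO minus control (log2) of genes listed as Paneth cell granule genes and of the alpha-defensin probe sets in cells labelled Lgr5-Hi and Lgr5-Med. There is 1 point per gene or probe set and label, without error bars because each group had 1 array. Reg3b has the lowest values, at -2.36 and -3.16, and the alpha-defensins lie closer to 0, with medians of -0.48 and -0.61.

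Of the genes listed for alpha-defensin processing and secretion, the protease gene Mmp7 had the largest genotype differences. Whether each listed gene acts on alpha-defensins was not tested. Mmp7 was at 9.72 in Zip7 KO, against 11.27 in the control, under Lgr5-Hi (-1.55). Under Lgr5-Med it was at 8.39 in Zip7 KO, against 10.27 in the control (-1.89). Its differences were larger than those of every alpha-defensin probe set under both labels. Of the 8 genes of this list above background, 5 were lower and 3 higher under Lgr5-Hi (median -0.09), and 6 were lower and 2 higher under Lgr5-Med (-0.16). They include Slc39a7, the gene deleted in the study. Without it, left out after its values were seen, 5 of 7 were lower under each label, with medians of -0.15 under Lgr5-Hi and -0.14 under Lgr5-Med. Mmp7 was the 1 gene of the list past 2-fold under either label. Slc30a2, the gene of a transporter that loads zinc into Paneth cell granules, was at 7.37 in Zip7 KO and 7.72 in the control under Lgr5-Hi. Under Lgr5-Med it was at 7.66 in Zip7 KO and 7.81 in the control. Pcsk1, the gene of a prohormone convertase of endocrine cells, was 2.19 higher under Lgr5-Hi than under Lgr5-Med in Zip7 KO and 2.21 higher in the control.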

How the data were processed

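Total RNA of sorted crypt cells was labelled with biotin and hybridised to 4 one-colour Affymetrix arrays. The deposited values are log2 intensities that the authors made with RMA, per the submitters' processing notes. RMA corrects background, normalises between arrays and summarises probes, and it narrows differences of low signals. Whether differences of the highest signals, such as those of Lyz1 and the alpha-defensins, were narrowed as well was not tested. The log base was read from the range of the values, 3.08 to 14.6. No further scaling was applied. Probe sets were named by the platform annotation, which lists 21789 with 1 symbol, 1621 with several and 12147 without an entry. A listed gene was read from its probe set with 1 symbol and the highest mean. Differences are subtractions of log2 values, and at least 2-fold means 1 or more on that scale. Sums of markers are over linear values. Named were all members, and of other genes members of fixed lists that passed 2-fold in a genotype comparison, together with Mmp7, Lyz1, Lgr5, Slc39a7 and Xist. Genes past 2-fold between the fractions were mostly given as counts. Slc30a2, Pcsk1, Guca2b, the lists without single genes, and genes named from counts of 5 or fewer were added after their values were seen. The members and lists were chosen with earlier results of these data known. Each group was 1 array, so there were no replicates and no tests. The code was tested on simulated data. Alternatives were other scalings, floors, thresholds and subsets of the members. Python 3.11.15, numpy 2.4.6, pandas 2.3.3, statsmodels 0.14.6 and matplotlib 3.10.9 were used.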

Additional observations from a re-analysis of the deposited data

How the results depend on the processing

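No paired analysis was possible because each group had 1 array and no result came from a test. Of 40 alternatives of a median, 10 could not change it, since all members were above the floor and none names a gene outside the family. The other 30 kept its sign, and 20 of them moved it by less than 0.1. With members that name 1 gene, the medians were -0.22 and -0.84 for Zip7 KO minus control under Lgr5-Hi and Lgr5-Med, 1.17 and 0.55 for Lgr5-Hi minus Lgr5-Med in Zip7 KO and control, and 0.62 for the difference between the labels. With probe sets of the same symbols averaged first, Zip7 KO minus control under Lgr5-Med was -0.78, Lgr5-Hi minus Lgr5-Med in Zip7 KO 1.04 and the difference between the labels 0.44. A common array median gave -0.72 under Lgr5-Med, and the 6 members under percentile 99 of mean level gave 0.10 for the difference between the labels. At a threshold of 1.5-fold, 5 members were lower in Zip7 KO under Lgr5-Med (2.24% of all probe sets were), and 8 in Zip7 KO (5.65% of all) and 7 in the control (2.43% of all) were higher under Lgr5-Hi. Under Lgr5-Med, 2 members were at least 2-fold lower after quantile normalisation (0.731% of all probe sets), 3 with a common median (0.926%) and 2 after removal of a loess trend (0.644%). Signal was far above background for all members. Sex, fraction purity and the number of animals are limits that 4 arrays without replicates cannot resolve.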

Other observations

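Genes that direct Paneth cell formation or act on defensin genes showed no 2-fold genotype difference. Under Lgr5-Hi 10 of 16 above background were higher in Zip7 KO and 6 lower (median 0.04), and under Lgr5-Med 5 of 17 were higher and 12 lower (median -0.08). Atoh1, the transcription factor of the secretory lineage, differed by -0.56 and -0.46 under the Lgr5-Hi and Lgr5-Med labels. Between the fractions in Zip7 KO, Bhlha15, a transcription factor of secretory cells, was 1.57 higher under Lgr5-Hi and Atoh1 1.03 higher, and Sox9 and Ephb3, which crypt base cells express, differed by -1.11 and -1.10. In the control, Bhlha15 was 0.66 higher under Lgr5-Hi and Atoh1 1.12 higher, and Sox9 and Ephb3 differed by -0.92 and -0.83.

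Of 13 listed genes of protein folding, degradation and stress in the ER, through which alpha-defensin precursors pass, most were higher in Zip7 KO. Under Lgr5-Hi all 13 were higher in Zip7 KO, where 57.9% of all probe sets were, and the median was 0.78. Those past 2-fold were Pdia4, Creld2, Sdf2l1, Derl3 and Herpud1. Under Lgr5-Med 12 were higher, where 46.5% of all probe sets were, and the median was 0.25. Derl3 alone was past 2-fold there, while Xbp1 differed by -0.20. The share of all probe sets at least 2-fold higher in Zip7 KO was not counted. Xbp1 is a transcription factor that the list of regulators holds too, and Derl3 and Herpud1 belong to ER-associated degradation. Without these 3, left out after their values were seen, 10 of 10 were higher under each label, with medians of 0.73 under Lgr5-Hi and 0.24 under Lgr5-Med. Derl3, a component of the ER degradation machinery, was at 11.06 in Zip7 KO and 7.34 in the control under Lgr5-Hi, and at 8.56 in Zip7 KO and 6.88 in the control under Lgr5-Med.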
